A study of Mus musculus with 38 samples.

Results

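The genes described here are the collagens, laminins and integrins, with every other gene whose symbol fits the same pattern (Col, a number, a and a number; Lama, Lamb or Lamc and a number; or Itga or Itgb). The pattern found 86 of the 25900 genes in the RNA table, in 87 of its 25965 rows, since Itgb1bp1 is listed in 2 rows. They were 43 collagen chains, 11 laminin chains and 28 integrin genes, of which Itgbl1 is an integrin-like gene and not a receptor subunit, and 4 genes that share only the spelling (Col4a3bp, Itgb1bp1, Itgb1bp2 and Itgb3bp). The same 86 genes held 333 of the 72923 promoter windows of the ChIP table.

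The cells were neural stem/progenitor cells (NSPCs) of the mouse subventricular zone (SVZ), grown as neurospheres without an adhesive coating, in medium with EGF, FGF-basic, B27 and heparin. Young adult (3 months) and aged (18 months) male mice of the strain C57BL/6JBabr gave 3 derivations per age; the labels name no allele or treatment. Each derivation pooled 5 mice, was made as 1 of 3 repeats on different days and was harvested at passage 2. RNA, H3K4me3, H3K27me3 and Input were measured in these, with 5-methylcytosine (5mC) read by oxidative bisulfite sequencing (oxBS) and by bisulfite sequencing (BS). RNA was also measured in 1 young adult and 1 aged derivation of the strain C57BL/10, from mice kept in another facility, so strain and facility cannot be told apart.

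Collagens are trimers of alpha chains that form fibrils or networks outside the cell, and laminins are cross-shaped trimers of an alpha, a beta and a gamma chain that, with the type IV collagens, build basement membranes. Integrins are pairs of an alpha and a beta subunit in the cell membrane that bind these proteins and link them to the cytoskeleton. In the adult SVZ, stem cells touch laminin-rich extensions of vascular basement membrane, and alpha6 beta1 integrin is known as a laminin receptor on them.

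RNA libraries (values deposited as log2 RPM, reads scaled to library depth) held 16952482 to 41053983 reads, of which 65.5% to 69.3% fell on genes, and a gene with 0 reads could still stand at up to 0.0731 to 0.177 RPM (3 reads, counting error only). The NSPC genes Nes, Sox2, Egfr and Fabp7 were high in every C57BL/6JBabr library; the lowest log2 RPM was 6.86, for Sox2. Of the microglial and leukocyte genes, Csf1r and Cd68 were read in all 6 while Ptprc, Tyrobp and Cd3e had no read, and of the ependymal and choroid plexus genes Foxj1 was read in all 6 and Kl had no read. The fibroblast genes Dcn and Lum, both too low to be tested, were highest in young adult replicate 3 (log2 RPM of 0.15 and -1.90) and next in aged replicate 2 (-0.98 and -2.47). Their whole list of fibroblast and meningeal genes summed highest in young adult replicate 2 (8.71 RPM), with 6.42 and 6.74 in young adult replicates 1 and 3. In bulk RNA, fewer cells of a type and less RNA per cell cannot be told apart.

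Per length, integrin beta1 was by far the most abundant integrin RNA. Itgb1, the beta subunit shared by most matrix-binding integrins (chr8:128685654-128733200, plus strand, GRCm38), had a mean of 191 RPM per kilobase of exon (RPKM) over the 6 C57BL/6JBabr libraries. It made up 58.9% to 60.5% of the summed integrin RPKM in each of them. Its log2 RPM was 9.63, 9.55 and 9.64 in the young adult and 9.60, 9.57 and 9.65 in the aged derivations, with all 6 close together. The next integrins per length were Itga7 (29.1 RPKM), a laminin-binding alpha subunit, Itgav (27.7), the alpha subunit of RGD-binding receptors, Itgb5 (19.0), one of its beta partners, and Itga6 (16.2), the laminin-binding alpha subunit; Itgb8, another partner of Itgav, stood at 15.9.

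Among laminins, 4 chains carried most of the RNA. Lama5 had 30.3 RPKM, Lamc1 20.5 and Lamb2 18.8, an alpha, a gamma and a beta chain, followed by Lamb1 with 3.64. The other alpha chains were much lower per length, at 0.519 RPKM for Lama4, 0.469 for Lama3, 0.274 for Lama1 and 0.0843 for Lama2. The 5 highest chains held 98.7% to 99.0% of the summed laminin RPKM in every C57BL/6JBabr library.

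Collagen RNA was led by the basement membrane chain Col4a5 (37.5 RPKM), and Col4a6, whose chain assembles with it, had 15.3. Col18a1, the source of endostatin, had 27.8 RPKM, and the type V chains Col5a1 and Col5a2, which regulate fibril assembly, had 17.5 and 13.1. The chains of the commonest type IV network were lower, Col4a1 at 2.42 and Col4a2 at 1.09 RPKM. Col1a1 (0.110) and Col3a1 (0.115), the main fibrillar chains of connective tissue, were in the lower part of the 58 rows that were tested, and Col1a2 fell under the limit for testing, with 4, 4 and 26 reads in the young adult and 4, 9 and 7 in the aged libraries.

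Only rows whose log2 RPM averaged -2 or more in the 6 C57BL/6JBabr libraries were tested, which left 58 of the 87: 25 of 43 collagen, 9 of 11 laminin and 19 of 28 integrin rows and all 5 rows of the other matches. The remaining 29 rows had 0 to 26 reads per library. Col6a6 and Itgb2l had no read in any of the 8 RNA libraries, and the leukocyte integrins Itgax and Itgad had 1 read in 1 and 2 libraries. Untested genes also included Col2a1, the cartilage collagen (0 to 10 reads), Lamb3 and Lamc3, and the leukocyte alpha subunits Itgam, Itgal and Itgae.

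The members varied widely between derivations. The range of the mean over the 3 replicate numbers had a median of 0.55 log2 units, against 0.27 over all 14858 genes tested. In a moderated F test of the replicate number (limma, added after the values were seen), 26 of the 58 passed an adjusted p of 0.05, of which 14 were collagens, 4 laminins and 8 integrins; the share over all tested genes was 22%. Ranges of at least 1 log2 unit were found in 12 members, against 6.66% of all genes.

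Itga4, the alpha subunit of VLA-4, had the lowest p of these (limma, adjusted p = 2.6e-05). Its log2 RPM was 4.23, 3.21 and 2.35 in young adult replicates 1, 2 and 3 and 4.24, 3.65 and 2.39 in the aged ones. Replicate 1 was thus high and replicate 3 low at both ages. Col27a1, a fibrillar collagen of cartilage, had the same order, from 3.34, 2.74 and 2.16 in the young adult to 3.57, 3.15 and 2.72 in the aged libraries. Col25a1, a transmembrane collagen, was also highest in replicate 1, with young adult values of 2.72, 1.27 and 0.75 and aged values of 2.25, 1.88 and 0.28.

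The reverse order, lowest in replicate 1 and highest in replicate 3, was seen in the head-to-head pair Col4a1 and Col4a2. Col4a1 stood at 3.52, 4.02 and 4.87 log2 RPM in the young adult and at 3.41, 4.01 and 4.63 in the aged libraries. Col4a2 stood at 1.94, 3.07 and 3.37, and at 2.08, 2.64 and 3.34. Col6a1, a chain of the beaded-filament collagen VI, moved over a wider range, from 1.42, 2.34 and 3.17 to 1.45, 2.15 and 3.14.

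The same order was seen in the receptors Itga1, which binds collagen (4.05, 4.69 and 4.97 in the young adult, 4.06, 4.57 and 5.03 in the aged) and Itgb2, the beta subunit of leukocyte integrins (-0.50, 1.13 and 2.14, then -0.37, 0.67 and 1.95). The microglial and leukocyte list summed to 7.59 to 11.2 RPM in these 6 libraries, nearly all from Csf1r and Cd68, while Ptprc, Tyrobp and Cd3e were at 0 reads; its part in the level of Itgb2 was not tested. Over the 26 members with an adjusted p under 0.05, 21 kept the same order of the 3 replicate numbers at both ages, against 74.2% of all genes called in this test. The F test favours genes with a shared order, so these shares are high by selection. Over all 58 tested members 28 kept the order, against 36.2% of all tested genes. Of the 26, 15 were highest in replicate 3, as were 1860 of the 3263 genes called. The ependymal gene Foxj1 rose from replicate 1 to replicate 3 at both ages (4.92, 5.99 and 6.60, then 5.08, 5.72 and 6.51), and Fabp7 fell (11.29, 10.90 and 10.47, then 11.04, 10.80 and 10.25). The part of Foxj1 and Fabp7 in the members' differences was not tested.

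**Figure D1:**
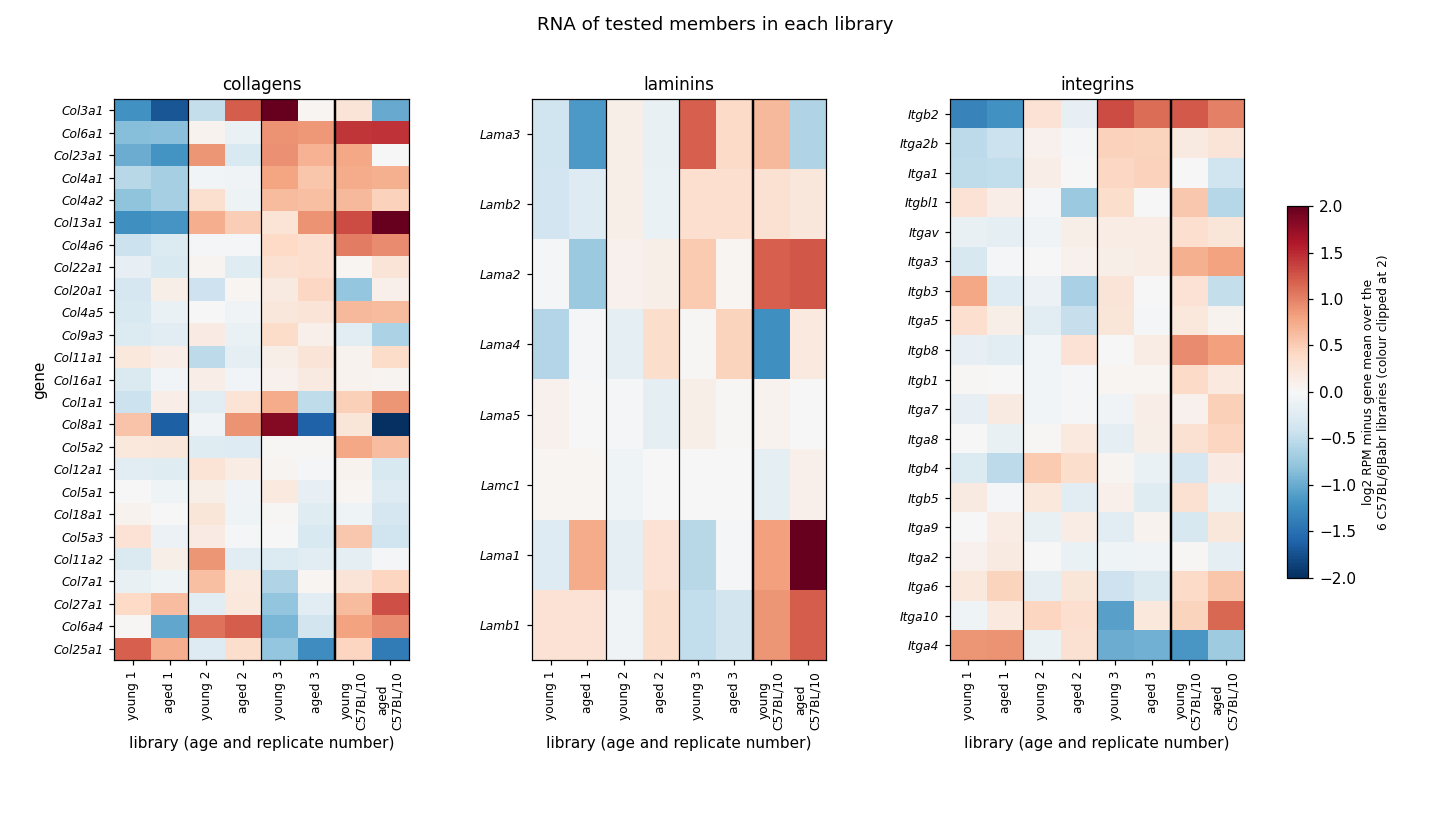
RNA of 52 tested collagen, laminin and integrin rows in 8 libraries. Colour gives log2 RPM minus the gene's mean over the 6 C57BL/6JBabr libraries, columns are libraries ordered by replicate number and age, and thin lines part the replicate numbers. The young adult and aged columns of 1 replicate number share colours in genes such as Itga4, Col4a1, Col6a1 and Itgb2.

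Between ages, no member passed an adjusted p of 0.05. The count was 0 of 58 in limma, where the share of all tested genes was 0%, and 0 with the replicate number as a block, where 0.498% of all genes passed; it was also 0 in edgeR (0% of all genes), in edgeR with the block (0.559%) and in DESeq2 (0.0269%). At an unadjusted p under 0.05, limma gave 5 of 58 members (1.74% of all genes) and 13 with the block (8.27% of all genes), of which 5 were higher and 8 lower in aged NSPCs. The corresponding counts were 5 in edgeR (1.73%), 14 in edgeR with the block (8.35%) and 6 in DESeq2 (1.47%). The 5 of limma were Itgb5, Lama1, Lama4, Col5a3 and Col5a1. Without young adult replicate 2 the count was 2, and without young adult replicate 3 or aged replicate 3 it was 3. RNA adjusted p-values given below for single genes come from the alternative fits with the block. The standard errors (SE) of RNA differences come from limma without the block, so they are not the spread behind those p-values. In limma without the block, Fbln5, a matrix gene outside the members, had an adjusted p of 0.99998 at an unadjusted p of 0.0116. Members with a higher unadjusted p, such as Lama1 and Col5a3, cannot have a lower adjusted p there.

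The median log2 difference of the 58 was -0.04 (aged minus young adult), with 24 higher and 34 lower, and over all genes it was 0.00. Leaving out aged replicate 1 turned the median to 0.07, and leaving out young adult replicate 1 gave -0.14. By class the median was -0.10 for collagens, -0.05 for laminins and -0.00 for integrins. Single differences ran from -1.56 to 0.40 in collagens, -0.62 to 0.66 in laminins and -0.62 to 0.50 in integrins, and the 5 rows that match by spelling alone lay between -0.10 and 0.63.

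Among the laminins whose differences are given here, the alpha chains Lama1, Lama3, Lama4 and Lama2 differed most. All of them were far below the main alpha chain, Lama5, per length. Lama1, an alpha chain of embryonic basement membranes (chr17:67697265-67822645), had 1.08, 1.16 and 0.79 log2 RPM in the young adult and 2.09, 1.64 and 1.30 in the aged derivations. All aged values lay above all young adult values. The difference was 0.66 ± 0.24 (SE, n = 3 per age; limma, unadjusted p = 0.0264), with an adjusted p of 0.165 in the blocked fit.

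Lama4, the alpha chain of vascular and peripheral basement membranes (chr10:38965515-39110188), had 2.02, 2.41 and 2.63 in the young adult and 2.57, 2.95 and 3.05 in the aged derivations. The groups overlapped, since young adult replicate 3 lay above aged replicate 1, but within each replicate number the aged value was the higher. Its difference was 0.51 ± 0.20 (SE; adjusted p = 0.0912 in limma with the block and 0.0837 in edgeR with the block).

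Lama3, the alpha chain of epithelial laminin-332, went the other way: 1.76, 2.27 and 3.35 in the young adult against 1.00, 2.00 and 2.54 in the aged derivations. Every aged value lay under the young adult value of its number, although the groups overlapped over a wide range. Without young adult replicate 3 the difference was -0.17, without aged replicate 1 -0.19, without young adult replicate 1 -0.97 and without aged replicate 3 -0.96. The difference was -0.62 ± 0.48 (SE, limma without the block), and the adjusted p was 0.114 in limma with the block. Lama2, the muscle alpha chain, had -0.39 ± 0.30 (-0.12 without aged replicate 1 and -0.23 without young adult replicate 3). Among beta and gamma chains, Lamb1 had 0.19 ± 0.24 (-0.014 without young adult replicate 3 and 0.41 without aged replicate 3), Lamc1 0.03 ± 0.08 and Lamb2 -0.05 ± 0.21 (SE).

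Of the integrins, Itgb5 (chr16:33829665-33949153), the vitronectin-binding partner of Itgav, had the lowest p of all members. Its log2 RPM was 6.24, 6.27 and 6.17 in the young adult and 6.04, 5.84 and 5.82 in the aged derivations, so the ages did not overlap. The difference was -0.33 ± 0.09 (SE, n = 3 per age; limma, unadjusted p = 0.00624), and the adjusted p was 0.0750 in limma with the block and 0.0611 in edgeR with the block. Itgav itself differed by 0.04 ± 0.13 and Itgb8 by 0.15 ± 0.13 (SE).

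Itga6 was 7.37, 6.97 and 6.74 in the young adult and 7.61, 7.40 and 6.88 in the aged derivations. The aged value was higher within each number, while the ages overlapped. Its difference was 0.27 ± 0.21 (SE; adjusted p = 0.173 in limma with the block), and it ran from 0.11 without aged replicate 1 and 0.12 without young adult replicate 3 to 0.44 without young adult replicate 1 and 0.48 without aged replicate 3. Itgb4, the beta subunit that pairs with alpha6 in hemidesmosomes, was 0.89, 1.67 and 1.20, then 0.63, 1.51 and 1.02, with a difference of -0.20 ± 0.30, which was 0.012 without aged replicate 1 and 0.0100 without young adult replicate 2. Itga7 (0.19 ± 0.09) and the tenascin-binding Itga9 (0.24 ± 0.13) were higher in every aged than in every young adult library, and the thinly read Itga10 (0.50 ± 0.42), Itgb3 (-0.62 ± 0.37) and Itgbl1 (-0.40 ± 0.36) had the other large differences of the class; leaving out 1 library gave 0.077 to 0.83, -0.83 to -0.38 and -0.57 to -0.14. Itgad, a leukocyte subunit, could not be compared at this depth.

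Among collagens, Col5a3, another type V chain (chr9:20770050-20815067, minus strand), had 5.66, 5.52 and 5.35 in the young adult and 5.25, 5.32 and 5.06 in the aged derivations. Every aged value lay below every young adult value. The difference was -0.30 ± 0.11 (SE; limma, unadjusted p = 0.0268; adjusted p = 0.125 with the block). Col5a1 (-0.22 ± 0.08) and Col18a1 (-0.22 ± 0.10) did not overlap either and were lower in aged libraries.

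Several of the wider collagen differences, such as those of Col8a1, Col3a1 and Col13a1, rested on few reads. Col8a1, a short-chain network collagen, had 19, 5 and 29 reads in the young adult and 4, 16 and 4 in the aged libraries, with a difference of -1.56 ± 0.79 log2 units (SE). Col23a1 differed by -0.53 ± 0.60, Col3a1 by -0.31 ± 0.96, Col27a1 by 0.40 ± 0.31, Col20a1 by 0.38 ± 0.28 and Col13a1 by 0.14 ± 0.70 (SE). Leaving out 1 library gave -2.41 to -1.04 for Col8a1, -1.16 to -0.066 for Col23a1 and 0.11 to 0.70 for Col27a1. Col13a1 and Col3a1 changed direction when single libraries were left out, and Col3a1 was 0.69 without young adult replicate 3.

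In all, the ages did not overlap in 7 of the 58 rows, against 5.2% of all genes: 3 were higher in aged NSPCs (Lama1, Itga7 and Itga9; 3.14% of all genes) and 4 lower (Itgb5, Col5a3, Col5a1 and Col18a1; 2.05% of all genes). All 3 replicate numbers pointed the same way in 23 of the 58, in 9 upwards and in 14 downwards, against 29.3% of all genes.

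**Figure D2:**
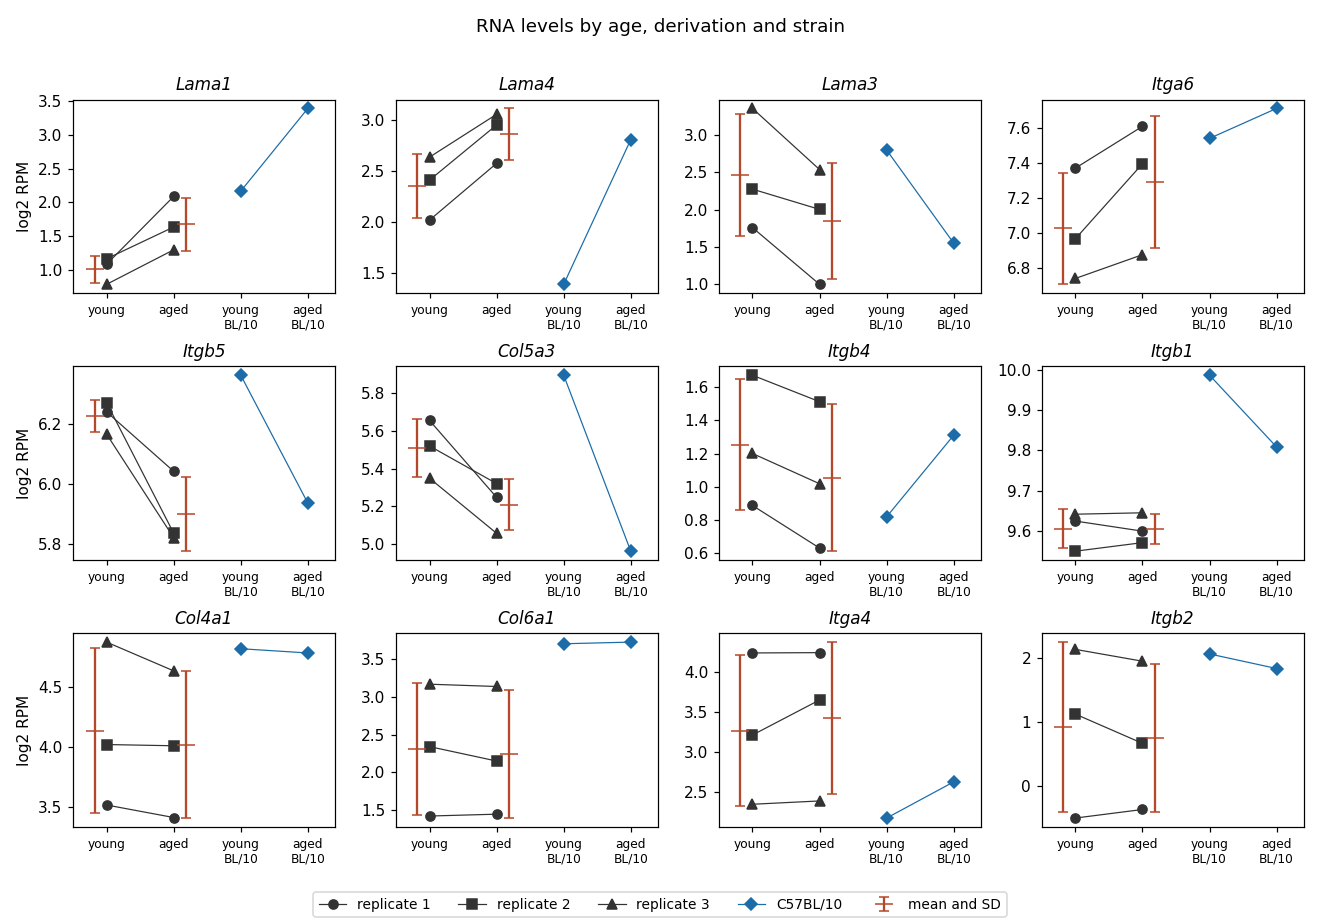
Log2 RPM of 12 members in the 8 RNA libraries. Lines join the young adult and aged libraries of a replicate number, bars give the mean and SD of 3 derivations, and diamonds are the C57BL/10 libraries. In Lama4, Lama3 and Itga6 all 3 lines run in the same direction while the levels differ by number; in Col4a1, Col6a1, Itga4 and Itgb2 the lines lie far apart and keep their order at both ages.

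In C57BL/10, with 1 library per age and no test, 59 member rows averaged a log2 RPM of -2 or more, and 15 differed by at least 1.5-fold, against 9.6% of all genes. Of these, 8 were higher in the aged library (4.71% of all genes) and 7 lower (4.89%). Lama1 was 2.17 in the young adult and 3.39 in the aged library and Lama4 1.39 and 2.81, both higher in aged. Lama3 was 2.80 and 1.55 and Col5a3 5.89 and 4.96, both lower. Thus Lama1, Lama4, Lama3 and Col5a3 pointed as in C57BL/6JBabr with larger differences (1.23, 1.42, -1.25 and -0.93), and Itgb5 did so at -0.43 (6.36 and 5.94).

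Other differences past 1.5-fold were Col25a1 (-1.83), Col3a1 (-1.27), Itgbl1 (-1.10), Col23a1 (-0.79) and Itgb3 (-0.77) downwards, and Col13a1 (1.15), Col20a1 (0.88), Itga10 (0.71) and Col27a1 (0.65) upwards; the low Col6a2 and Itgal, both at 0.66, complete the 15. The mean differences of C57BL/6JBabr and C57BL/10 had the same sign in 43 of 58 rows, against 65.2% of all genes. Itgb4 was lower in aged NSPCs in all 3 replicate numbers and higher in C57BL/10 (0.82 and 1.31).

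**Figure D3:**
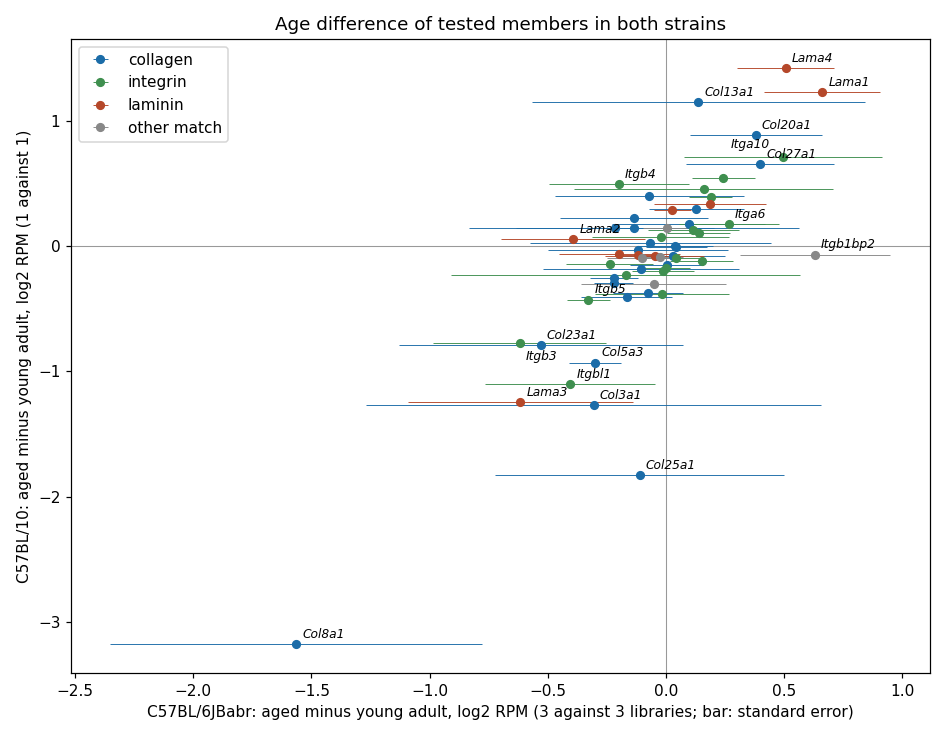
Age differences of the 58 tested rows in log2 RPM: C57BL/6JBabr on the horizontal axis (3 against 3 derivations, bars give the standard error) and C57BL/10 on the vertical axis (1 against 1). Lama1 and Lama4 lie at the upper right, Lama3, Col5a3 and Itgb5 at the lower left, and Itgb4 at the upper left.

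Levels were also set beside each other in C57BL/10 and C57BL/6JBabr, which differ in facility as well as strain. In 17 of the 58 rows both C57BL/10 libraries lay above all 6 C57BL/6JBabr libraries. That is close to the share over all genes, 31.4%, and so no trait of the members. In 0 rows they lay below, against 13.4% of all genes. The C57BL/10 mean was higher by 1.87 log2 units for Col13a1, 1.44 for Col6a1 and for Lama1, 1.22 for Lama2, 1.05 for Lamb1, 0.98 for Col4a6, 0.96 for Col27a1, 0.89 for Itgb8 and 0.64 for Col4a5. Itgb1 was higher by 0.29, at 9.99 and 9.81. Over all tested genes the median of this difference was 0.17, and over the members 0.22.

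The promoters of the members fell into distinct mark states. H3K4me3 marks starts of active and poised genes, H3K27me3 is laid down by Polycomb complex PRC2 at silent or poised genes, and 5mC at a promoter goes with silence. Each was read in the 5000 bp around a start site, with 1 window per gene, the one with the highest H3K4me3. A mark was counted as present where its log2 RPM, averaged over both ages, was at least 1 above Input, a limit set after the values were seen.

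H3K4me3 alone was found at 27 of the 86 genes (31.4%, against 47.5% of all 25888 genes). All 27 were tested for RNA, as were 11556 of the 12284 genes that had this state in all. The 27 had a median level of 3.36 log2 RPKM and a median 5mC of 22.2%, against 2.29 and 22.8% over all genes in this state. Itgb1, Itgav, Itgb8, Col4a5, Col4a6, Lamc1 and Lama5 were in this state with H3K27me3 more than 1 log2 unit below Input. The laminin chains Lama4 and Lama3 were there with moderate H3K4me3 (3.82 and 2.91) and 5mC of 38.6% and 55.0%.

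Both marks were present at 25 genes, 29.1% of the members against 10.7% of all genes. Collagens made up 16 of them, including those with the highest H3K27me3 of the class: Col2a1 (5.87 log2 RPM), Col14a1 (5.42) and Col13a1 (5.31), with H3K4me3 of 5.06, 5.00 and 4.62. Median RNA of the 25 was -3.19 log2 RPKM, against -3.69 over all genes in this state. Of the 25, 16 were tested, against 1376 of the 2761 genes with both marks in all. The log2 RPKM of Itgb5 (4.25), Lamb1 (1.86), Itga3 (1.42), Col4a1 (1.28) and Col12a1 (0.92) lay well above the median of the 25. Lamb1 and Lama1 held the highest H3K27me3 of the laminins after Lamc3 (4.18 and 2.85), and among integrins Itga11 (4.39), Itga3 (3.94) and Itgb4 (3.34) led. Where both marks stand in one window of pooled cells, whether they share a chromatin fibre cannot be told.

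H3K27me3 without H3K4me3 was found at 15 genes (17.4%, against 5.78%). Their medians were -6.13 log2 RPKM and 61.2% 5mC, against -5.53 and 69.2% over all genes in this state. Lamc3 had the most H3K27me3 (4.47), and 11 of the 15 were collagens, among them Col6a2, Col6a3, Col6a4, Col6a5 and Col6a6 of the collagen VI family. Neither mark was present at 19 genes (22.1%, against 36.1%), with a median 5mC of 72.3%, against 74.6% over all genes in this state. This state held the leukocyte integrins Itgax (71.7% 5mC), Itgal (72.0%), Itgad (83.1%) and Itgae (85.4%), and Lamb3 (81.2%). H3K27me3 lay close under the limit at Itgax, Itgad and Itgal, at 0.86, 0.86 and 0.80 log2 units above Input. At Itgae and Lamb3 the same value was 0.12 and -0.25. Col6a4 and Col1a2, counted with H3K27me3 alone, stood at 1.00 each, so the state of such genes depends on the limit.

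Several genes with neither mark were transcribed. Col5a3, at 6.08 RPKM, had H3K4me3 of 1.34 and H3K27me3 of 0.27 against an Input of 1.29, with 46.4% 5mC. Col6a1 (1.25 RPKM) stood at 57.4% 5mC and Itgb2 (0.739 RPKM) at 78.5%. These are values of the annotated start with the highest H3K4me3, and starts outside the table were not looked at.

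Across 85 members with all measures, log2 RPKM had a Spearman correlation of 0.69 with H3K4me3, -0.56 with H3K27me3 and -0.55 with 5mC, and H3K4me3 and 5mC had one of -0.89. These describe genes, which share libraries and base composition and are not replicates.

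**Figure D4:**
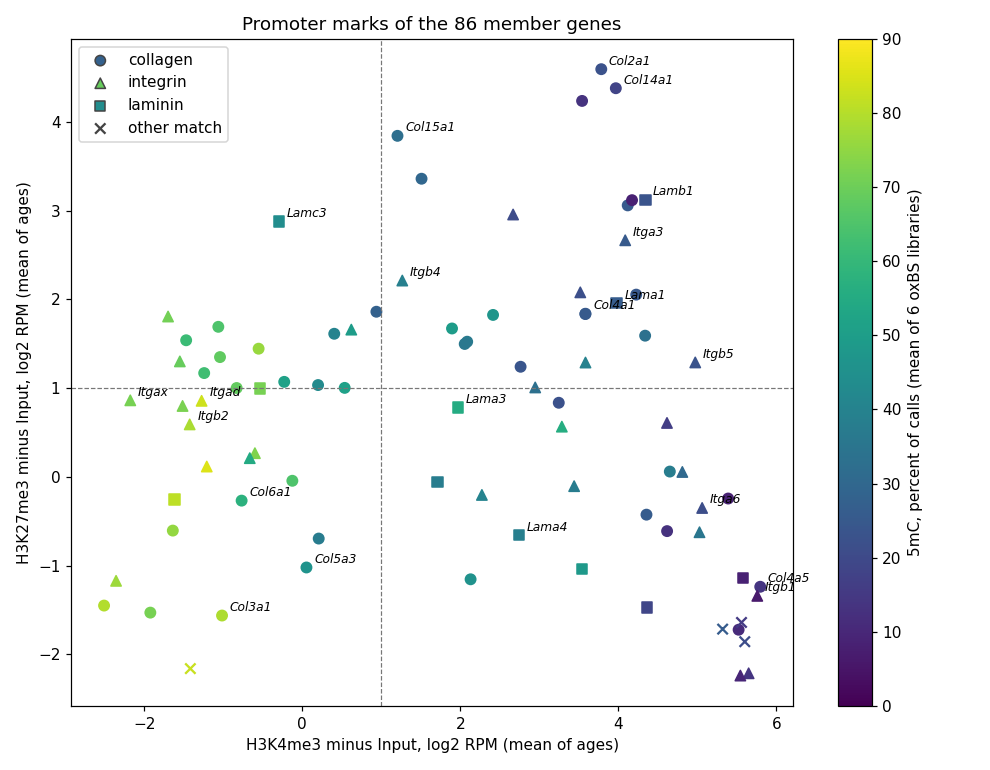
H3K4me3 against H3K27me3, each as log2 RPM minus Input and averaged over both ages, at 1 promoter window for each of the 86 genes. Shape gives the class, colour the mean 5mC of 6 oxBS libraries in percent, and dashed lines the limit of 1. Genes at the lower right (Itgb1, Col4a5) have little 5mC, those at the upper right both marks, and those at the lower left (Itgad, Col3a1) much 5mC.

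The type IV collagen genes lie in pairs on opposite strands, and each pair shared a state. Start sites of Col4a1 and Col4a2 are 21 bp apart, those of Col4a3 and Col4a4 127 bp and those of Col4a5 and Col4a6 1334 bp, so their windows count largely the same reads. Col4a1 and Col4a2 had both marks (H3K4me3 4.95 and H3K27me3 3.21 at Col4a1), as did Col4a3 and Col4a4, which had 0 to 4 reads per library (3.19 and 2.63 at Col4a3). Col4a5 and Col4a6 had H3K4me3 of 5.35 and 5.24 and H3K27me3 of -1.69 and -2.01. RNA of the 3 pairs had the order of their H3K4me3, with 0.00902 RPKM for Col4a3, 2.42 for Col4a1 and 37.5 for Col4a5. It did not have that of H3K27me3, which was highest at Col4a1 and Col4a2.

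The states went with the density of CpG, the dinucleotide that carries 5mC. RefSeq promoter sequences (GRCm38.p6) were matched by symbol for 62 of the 86 genes, and 56 had a start inside the window used here. In the 250 bases before the start, the median was 12 CpG for the 19 genes with H3K4me3 alone, 16.5 for the 16 with both marks, 8 for the 11 with H3K27me3 alone and 4 for the 10 with neither, against 6 over 32851 promoters. At least 10 CpG were held by 33 of the 56, against 37.8% of all promoters, and by 1 of the 10 with neither mark, Col5a3. For each member the start nearest to the window with its highest H3K4me3 was used. The 32851 promoters were not chosen in this way, so the values of members and of all promoters are not matched.

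The following 5 stretches of 250 bases are shown because they stand for these states. Itgb1 stands for H3K4me3 alone, and Lamb1 and Itgb5 for both marks, the latter with the H3K27me3 difference given below. Neither mark was counted at Itgax, in a window with much 5mC, and at Col5a3, a gene with RNA. H3K27me3 at Itgax was 0.86 log2 units above Input, close under the limit. Capitals mark each CpG, and each stretch runs 5′ to 3′ on the strand of the gene up to the base before the RefSeq start.
Itgb1 (chr8:128685404-128685653, plus strand): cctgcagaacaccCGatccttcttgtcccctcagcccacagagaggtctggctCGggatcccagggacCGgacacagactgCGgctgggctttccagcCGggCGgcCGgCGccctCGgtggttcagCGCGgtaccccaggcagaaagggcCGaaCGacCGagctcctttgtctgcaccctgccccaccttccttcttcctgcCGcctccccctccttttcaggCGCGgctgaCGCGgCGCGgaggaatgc
Lamb1 (chr12:31265043-31265292, plus strand): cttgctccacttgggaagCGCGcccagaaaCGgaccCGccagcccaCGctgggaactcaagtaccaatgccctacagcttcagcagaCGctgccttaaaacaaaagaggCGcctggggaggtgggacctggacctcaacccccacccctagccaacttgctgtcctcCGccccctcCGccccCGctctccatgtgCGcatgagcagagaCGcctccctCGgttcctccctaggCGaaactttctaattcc
Itgb5 (chr16:33829415-33829664, plus strand): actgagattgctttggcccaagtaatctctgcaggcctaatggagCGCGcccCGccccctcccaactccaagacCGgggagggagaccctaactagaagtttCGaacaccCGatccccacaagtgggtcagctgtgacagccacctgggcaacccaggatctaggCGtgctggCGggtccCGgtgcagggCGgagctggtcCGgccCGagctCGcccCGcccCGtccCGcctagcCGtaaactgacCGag
Itgax (chr7:128129300-128129549, plus strand): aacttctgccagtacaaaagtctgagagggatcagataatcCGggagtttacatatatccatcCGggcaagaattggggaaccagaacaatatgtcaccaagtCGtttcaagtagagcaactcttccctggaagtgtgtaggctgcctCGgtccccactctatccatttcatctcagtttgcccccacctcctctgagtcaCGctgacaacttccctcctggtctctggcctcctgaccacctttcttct
Col5a3 (chr9:20815068-20815317, minus strand): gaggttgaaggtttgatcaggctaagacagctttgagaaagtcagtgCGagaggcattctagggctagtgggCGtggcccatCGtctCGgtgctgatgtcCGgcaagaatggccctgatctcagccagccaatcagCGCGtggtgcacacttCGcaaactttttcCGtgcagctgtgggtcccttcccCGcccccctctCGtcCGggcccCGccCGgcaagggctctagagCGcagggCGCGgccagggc

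The Itgb1 stretch holds 21 CpG and lies in a window with 6.08% 5mC, and those of Itgb5 and Lamb1 hold 18 and 14 in windows with 23.0% and 23.4%. Itgax holds 5 CpG in a window with 71.7%. Col5a3 holds 17 CpG, more than 76.5% of all promoters, in a window with 46.4%.

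Between ages, promoter marks were compared without replicates. With 1 deposited value per age for each mark there is no test, and a promoter was counted where the ages differed by at least 1.5-fold and at least 1 age exceeded a log2 RPM of 1. For H3K4me3, 0 of 86 members met this (0.212% of all genes; 0.0541% higher in aged), and the median difference was 0.10, against 0.15 over all genes. For H3K27me3, 1 of 86 did (1.5% of all genes), and it was higher in aged NSPCs (0.718%).

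That gene was Itgb5, in the window chr16:33827177-33832177. Its H3K27me3 was 1.78 in young adult and 2.44 in aged NSPCs, a difference of 0.66, with H3K4me3 of 5.74 and 5.85. Input was 0.64 and 1.00 in the same window. With Input subtracted the difference was 0.30, short of 1.5-fold, and averaged over all 5 windows of the gene it was 0.44, also short. With both the fold and the level taken after Input subtraction, Col8a1 was the 1 member counted, at 0.62; Itgbl1 had a larger difference, 0.74, but stayed under the level (-0.16 and 0.58). A second window of Lamb1, chr12:31321021-31326021, went from 0.45 to 1.11 in H3K27me3, whereas the one at its main promoter had 4.10 and 4.26.

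H3K27me3 differed more at promoters where it lay below the level set for counting. Itgav went from -0.74 to -2.19 and Lamc1 from -0.80 to -0.00. The 5 members with limma p under 0.05 for RNA had H3K27me3 differences of 0.66 (Itgb5), 0.02 (Lama1), -0.61 (Lama4), -0.09 (Col5a3) and 0.12 (Col5a1). In the same order, their H3K4me3 differences were 0.11, 0.21, 0.29, -0.38 and 0.13. Among all genes with H3K4me3 above 1, 14540 of 15909 were higher in aged NSPCs, with a median H3K4me3 difference of 0.21. H3K4me3 at Col5a3 lay close to Input (1.34 against 1.29). Lama4, whose RNA was higher in aged NSPCs, had H3K27me3 of 0.72 and 0.12, both below its Input of 1.21 and 0.95.

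For 5mC, 85 of the 86 promoters had at least 10 calls in each of the 6 oxBS libraries, Itgb1bp2 being the exception, with a median of 540 calls per promoter over the 6. In a quasi-binomial model 0 of 85 passed an adjusted p of 0.05 with a difference of 10 percentage points, as did 0% of all 23797 promoters tested. At an unadjusted p under 0.05 there were 4 of 85 (Col5a3, Itga5, Lamb1 and Itga2), against 5.44% of all promoters; without young adult replicate 1 there were 0. The median difference over the 85 was -0.38 percentage points, with an SD of 1.47 over the 3 replicate numbers, against 0.41 over all promoters. By class the median was -1.02 over 43 collagens, of which 16 were higher in aged NSPCs, 7.18 over 11 laminins, of which 8 were higher, and -0.25 over 28 integrins, of which 14 were higher, against 12700 of all 23797 promoters.

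The largest oxBS difference was at Col5a3. There 59.4%, 46.8% and 56.6% of calls were methylated in the young adult and 29.3%, 36.8% and 49.4% in the aged libraries, each over 69 to 87 calls. The groups overlapped. The difference was -15.8 percentage points (quasi-binomial model, adjusted p = 0.912), while BS calls, which also count 5-hydroxymethylcytosine, gave 48.6% and 48.8%, and a 2000 bp window gave -26.3 percentage points. Leaving out 1 library at a time gave -21.3 to -11.2. Itgb4 differed between the assays in the other way, by -15.2 percentage points in BS calls and 4.55 in oxBS. Its BS values were 42.7%, 46.8% and 45.1% in the young adult and 21.5%, 36.4% and 31.1% in the aged libraries (quasi-binomial model, adjusted p = 0.99952).

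Other large oxBS differences were towards more 5mC in aged NSPCs. Itga8 differed by 13.3, Itgb2 by 11.7 and Itga2, a collagen-binding alpha subunit, by 10.7 percentage points. Leaving out 1 library at a time gave 9.28 to 19.5 for Itga8, 7.97 to 17.6 for Itgb2 (the latter without aged replicate 2) and 8.94 to 12.2 for Itga2. BS calls gave 1.90, 2.11 and 8.56 at these promoters, and in a 2000 bp window the Itgb2 difference was -0.58. Itga2 did not overlap, at 50.6%, 48.0% and 52.4% against 60.6%, 64.5% and 58.0% (69 to 123 calls). In 10 of the 85 promoters the ages did not overlap, against 10.5% of all.

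Genes that act with the members were read from lists of partners. The SE of their differences come from limma without the block. Over all tested genes 0% passed in limma and 0.498% with the block, and 7512 were higher and 7346 lower in aged NSPCs. Of 18 basement membrane partners 0 passed in limma and 1 with the block, Smoc1, a calcium-binding basement membrane protein: 5.26, 5.07 and 4.66 in the young adult and 5.64, 5.49 and 4.97 in the aged libraries (0.37 ± 0.20, SE; adjusted p = 0.047 with the block, lost without it). Fbln5, an elastic fibre protein, had the largest difference there, -1.10 ± 0.34 (SE, limma without the block). Its adjusted p was 0.114 in limma with the block. By direction 6 of the 18 were higher and 12 lower in aged NSPCs.

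Of 24 tested genes of interstitial and neural matrix, 1 passed with the block and 0 without, the microfibril gene Fbn2 (0.37 ± 0.24, SE; adjusted p = 0.0394 with the block), and Matn4 had the largest difference (-0.51). Integrin adaptors and kinases gave 1 of 21 with the block and 0 without: Parvb, an actin-binding partner of integrin-linked kinase, at 5.22, 5.50 and 5.01 against 4.88, 4.93 and 4.49 (-0.47 ± 0.16, SE; adjusted p = 0.024 with the block). Tgfb1i1, a focal adhesion adaptor, had -0.27.

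Collagen biosynthesis gave 0 of 24 tested genes in limma with and without the block, with 5 higher and 19 lower in aged NSPCs and a median of -0.08; Adamts3 (-0.31) and Adamts2 (-0.30), which trim procollagens, led. Matrix proteases and their inhibitors gave 0 of 21 in both fits, led by the membrane protease Mmp14 (-0.30) and Timp1 (-0.28).

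Marker lists of other cells gave 0 genes past an adjusted p of 0.05 in limma with and without the block. Summed RPM of the lists was 1470 to 1702 in young adult and 1227 to 1345 in aged libraries for astrocyte genes, of which 1 was higher (S100b, 0.39) and 5 were lower in aged NSPCs (Gfap -0.54, Aldoc -0.44). It was 1169 to 1353 and 1307 to 1405 for the oligodendrocyte lineage, with 6 genes higher (Mog 0.65, Sox10 0.62) and 2 lower (Pdgfra -0.19 among them). Neuronal genes summed to 7.97 to 10.9 and 8.65 to 13.4, with 3 of 4 tested genes higher (Rbfox3 0.67, Stmn2 0.52 ± 1.01, SE, and Tubb3 0.15) and Dcx lower (-0.36). NSPC genes summed to 3898 to 4933 and 3732 to 4517, with 4 higher (Egfr 0.17, Sox2 0.12), 4 lower (Prom1 -0.26, Slc1a3 -0.20) and a median difference of 0.01.

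Among vascular and connective cells the sums were 12.2 to 23.4 and 11.5 to 19.4 RPM for endothelial genes (Flt1 -0.36, Kdr 0.27, Pecam1 0.06), 4.75 to 9.84 and 4.00 to 5.99 for pericyte and smooth muscle genes (Tagln -0.64, Rgs5 0.38, Acta2 -0.04) and 6.42 to 8.71 and 4.73 to 5.88 for fibroblast and meningeal genes (Thy1 -0.72, Igf2 -0.20, Pdgfra -0.19, Ogn 0.15). Microglial and leukocyte genes summed to 8.10 to 11.2 and 7.59 to 10.1 (Csf1r -0.11, Cd68 0.06), almost all from Csf1r and Cd68, and ependymal and choroid plexus genes to 30.6 to 98.5 and 34.2 to 92.2, mostly Foxj1 (-0.07; Ccdc153 -0.14). Their part in the members' differences was not tested.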

How the data were processed

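RNA values were deposited by the authors as log2 RPM, 1 value per gene and library, where a gene without a read holds the value of 0.9 reads. H3K4me3, H3K27me3 and Input were deposited as log2 RPM in 5000 bp windows around start sites, 1 value per age; the study shows its marks as averages of 3 replicates, but whether reads or values were averaged for this table is not stated. BS and oxBS files hold, as deposited, counts of methylated and unmethylated calls per cytosine; calls were summed in the same windows. The submitters' processing notes name GRCm38, STAR 2.3.0, Bowtie2 2.2.5, Bismark 0.12.5, Trim Galore 0.4 and 0.3.7. Whole reads were recovered from RPM (100% of values of 1 to 1000 reads were whole within 0.02).

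RNA was tested with limma 3.58.1 (trend, Benjamini-Hochberg) on the 14858 genes whose log2 RPM averaged -2 or more in C57BL/6JBabr; edgeR 4.0.16 and DESeq2 1.42.0 ran on recovered read counts. Promoter 5mC was tested with a quasi-binomial model with moderated dispersion. The limma, edgeR and 5mC fits were checked on simulated data. Where differences between derivations were simulated in every gene and shared by both ages, the RNA fits without the block called none of the changed genes. Those with the block called most. In the data 22% of tested genes passed the test of the replicate number, so the simulated setting differed from them. A count of 0 without the block can miss changes, but the simulation cannot tell how many were missed here. Derivations were repeated on different days, but the sources do not say that a number marks a day shared by both ages; deviations of same-numbered RNA libraries correlated at 0.659, 0.179 and 0.724 over genes, so a replicate block was fitted as an alternative. Exon lengths came from GENCODE, matched for all 87 rows. P-values of fits without the block rest on the spread between pooled derivations of an age. Those with the block rest on the spread left after differences between replicate numbers are removed. The median residual SD of the tested members was 0.319 log2 units in limma without the block and 0.123 with it.

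Genes were named by a rule: members the study names, per class the 5 highest per kilobase and the 3 largest rises and falls, any past a threshold, the 3 highest in H3K27me3 per class, the 5 largest 5mC differences and members of opposite direction in C57BL/10, with partner genes past a threshold and up to 2 of the largest differences per list; others, such as those shown for the derivations and sequences, were chosen after their values were seen. Members and lists were chosen with earlier results of these data known. Results of 1 member are not reported here by name.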

Additional observations from a re-analysis of the deposited data

Results flagged for a closer look

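Itgb4 RNA was lower in the aged than in the young adult library of all 3 replicate numbers of C57BL/6JBabr, whereas in C57BL/10 the aged library was higher by 0.49 log2 units. The C57BL/6JBabr mean difference of -0.20 turned to 0.012 without aged replicate 1 and to 0.0100 without young adult replicate 2. The difference between the strains was not tested, since C57BL/10 has 1 library per age. Itgb4 was read by 54 to 80 times per C57BL/6JBabr library.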

How the results depend on the processing

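Under every alternative run, 0 members passed the RNA test between ages and 0 the 5mC test. With the replicate block the RNA count was 0 (13 at an unadjusted p under 0.05, 14 in edgeR with the block), and for 5mC 0 (3 unadjusted); same-numbered libraries deviated together in RNA, which is the sole ground for pairing them, and not in 5mC (correlations of 0.000864, 0.000746 and 0.0172). Without any filter the ages did not overlap in 12 members (5.49% of all genes). The C57BL/10 count was 8 for a mean log2 RPM of at least 0 (6.09% of all genes), 9 on log2(RPM + 0.5) (5.27%) and 7 at 2-fold (3.13%). For H3K4me3 the count was 4 with a level above 0 (2.07% of all genes), 2 with centred differences (0.695%) and 3 with the mean over a gene's windows (0.375%), all lower in aged NSPCs. For H3K27me3 it was 0 at 2-fold (0.147%), 3 with a level above 0 (6.23%), 2 over every window (2.24%) and 0 with the mean over windows (1.29%). Leaving out 1 library gave 0 to 0 members past the RNA threshold, a median log2 difference of -0.14 to 0.072, 8 to 14 members without overlap (9.40% to 18.5% of all genes, since fewer libraries overlap less often), and a median 5mC difference of -1.09 to 0.71.

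Of 316 RNA values of 19 named members, 10 changed direction, in 4 members. Leaving out 1 library gave -0.44 to 0.76 for Col13a1, -0.99 to 0.69 for Col3a1, -0.43 to 0.012 for Itgb4 and -0.014 to 0.41 for Lamb1. In the block fit without replicate number 3, Col13a1 was -0.11 and Col3a1 0.59. BS calls gave 0.20 percentage points at Col5a3, and a 2000 bp window gave -0.58 at Itgb2. The cause was not tested. Thinly read members and promoters with few calls limit what could be seen, and the marks have no replicate check.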
